A study of Mus musculus with 19 samples.

Results

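The NR4A nuclear receptors are 3 genes, Nr4a1, Nr4a2 and Nr4a3, chosen as all probes whose gene name in the array files was one of these symbols. They had 3 probes, 1 spot each, among 27573 genes and 41174 probes on the array, and all 3 genes passed the filter on dim probes that left 19197 genes to test. Hippocampal neurons from mice, dissociated and grown for 21 days in vitro, were exposed for 6 h to 100 µM AP5, an antagonist of NMDA-type glutamate receptors, to 100 nM NVP-AAM077 (NVP), an antagonist that prefers NMDA receptors with the GluN2A subunit, to 1 µM of a compound titled Ro25, or to vehicle. The treatment labels give Ro25 a longer name whose number differs from that of the common GluN2B antagonist with the same prefix, so what the compound was could not be settled here. There were 19 arrays: 5 of AP5, 4 of NVP, 5 of Ro25 and 5 of vehicle. Each array carried neuron RNA in red and a commercial mouse reference RNA in green, so a level is given as a log2 ratio of red over green and an effect as a log2 difference between group means of these ratios. The doses of the compounds differ and are not matched for receptor block. The labels name no separate cultures or animals, so each p-value covers just the variation among these arrays, some or all of which may be technical. The number of arrays limits the precision.

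Nr4a1 (Nur77), Nr4a2 (Nurr1) and Nr4a3 (Nor-1) are transcription factors of the nuclear receptor superfamily that act without a known requirement for a ligand. They are immediate early genes: in neurons, calcium entry through NMDA receptors and voltage-gated channels induces their transcription through CREB, MEF2 and SRF, and the proteins bind DNA elements such as the NBRE in target genes, as monomers or with partners such as RXR. In the hippocampus they are known for their part in the consolidation of memory, and Nr4a2 is also known for specifying midbrain dopamine neurons.

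The promoters are shown because CREB-binding half-sites are among the elements through which these genes are known to respond to calcium. The windows are from RefSeq on GRCm38.p6, cover 250 bases before and 50 after each gene's start, and all 3 genes were matched by symbol. They are Nr4a1 at chr15:101266596-101266895 (plus strand), Nr4a2 at chr2:57123954-57124253 (minus strand) and Nr4a3 at chr4:48045055-48045354 (plus strand), written 5′ to 3′ along the gene with each CRE half-site, TGACG or CGTCA on the other strand, in capitals.
Nr4a1: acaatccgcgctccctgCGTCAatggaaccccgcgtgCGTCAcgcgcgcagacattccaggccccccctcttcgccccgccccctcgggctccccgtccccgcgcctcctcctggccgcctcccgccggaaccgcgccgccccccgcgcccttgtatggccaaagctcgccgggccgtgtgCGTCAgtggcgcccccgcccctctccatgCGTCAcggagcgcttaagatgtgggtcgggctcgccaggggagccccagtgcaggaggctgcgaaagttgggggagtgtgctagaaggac
Nr4a2: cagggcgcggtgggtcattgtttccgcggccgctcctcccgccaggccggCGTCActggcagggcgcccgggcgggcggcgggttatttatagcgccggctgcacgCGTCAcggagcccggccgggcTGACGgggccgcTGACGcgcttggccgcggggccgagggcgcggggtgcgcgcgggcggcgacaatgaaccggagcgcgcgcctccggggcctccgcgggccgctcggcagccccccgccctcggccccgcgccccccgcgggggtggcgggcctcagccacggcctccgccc
Nr4a3: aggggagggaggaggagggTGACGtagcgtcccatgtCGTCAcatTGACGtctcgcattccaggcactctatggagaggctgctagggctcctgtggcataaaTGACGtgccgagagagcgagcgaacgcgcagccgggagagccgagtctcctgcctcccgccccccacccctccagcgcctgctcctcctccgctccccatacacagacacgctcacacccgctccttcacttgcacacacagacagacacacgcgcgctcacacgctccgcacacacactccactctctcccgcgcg
Each window held 4 half-sites. At least 1 half-site was present in 20.8% of the 32851 promoter windows of this length, and at least 4 in 0.231%. Counted from the start site, the half-sites began at -233, -213, -69 and -40 in Nr4a1, at -200, -144, -123 and -111 in Nr4a2, and at -231, -213, -205 and -147 in Nr4a3. The full CRE, TGACGTCA, whose every match also holds the half-site, was in none of the 3 windows and in 1.79% of all windows. The NBRE, AAAGGTCA on either strand, was in none of the 3 and in 1.51% of all. The CArG box bound by SRF, CCWWWWWWGG with W for A or T, was in none of the 3 and in 1.63% of all. Only exact matches of each element were counted, so near matches may be present. A MEF2 site, which 3.19% of all windows held, occurred once, in Nr4a2 at -167. G and C made up 72.3% of the Nr4a1, 81.7% of the Nr4a2 and 64.7% of the Nr4a3 window. The half-site itself holds a CG, and the shares of all windows were not matched for G and C.

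Nr4a1 was lower in every AP5 array than in every vehicle array. Its probe lies at chromosome 15, bases 101102674 to 101102733 of the mm8 build that the file headers name, and was well above background in both channels of all 19 arrays. Exon and UTR annotation of mm8 was not used here for any probe. The log2 ratios were -2.55, -2.32, -2.37, -2.62 and -2.45 in AP5 arrays, -1.24, -1.30, -1.40 and -1.14 in NVP arrays, -1.32, -1.54, -1.36, -1.38 and -1.50 in Ro25 arrays, and -1.25, -1.01, -0.71, -1.06 and -1.03 in vehicle arrays. The AP5 arrays stood clear of all other arrays, the Ro25 arrays all lay below the vehicle arrays, and NVP and vehicle arrays overlapped. The red scanner signal of the probe, before normalization, spanned 4680 to 6590 in AP5 arrays, 10500 to 13400 in NVP, 7890 to 11500 in Ro25 and 9930 to 12100 in vehicle arrays, so the separation of AP5 was visible in the raw signal as well.

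**Figure D1:**
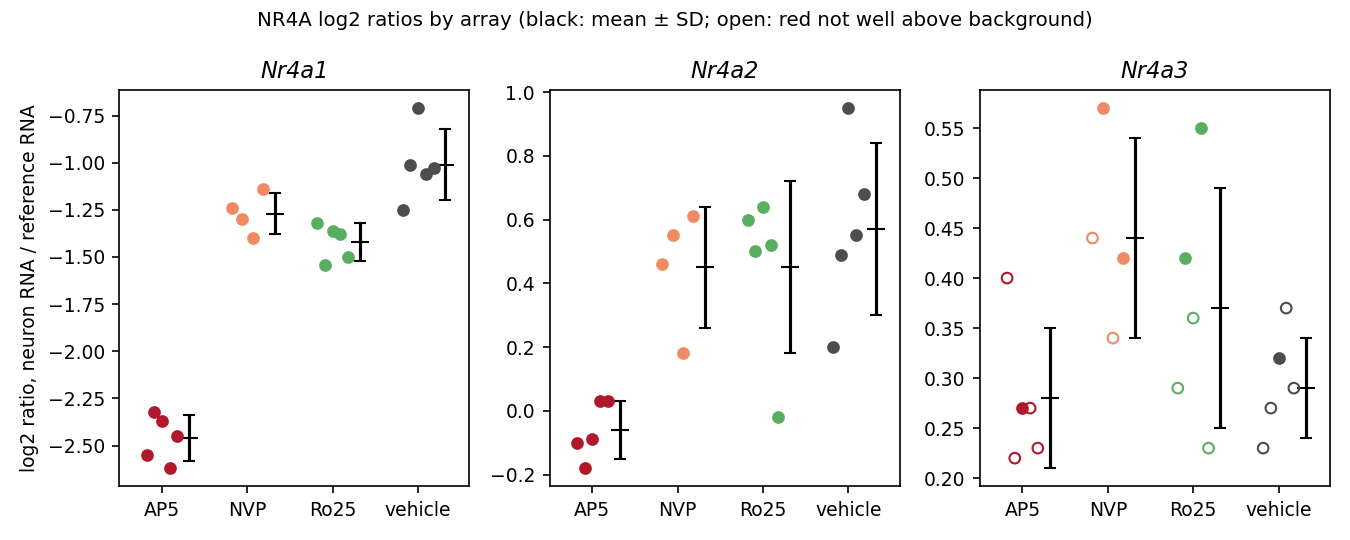
Log2 ratio of neuron RNA over reference RNA (y axis) for each array by treatment (x axis), with 1 panel per gene, the mean and SD in black, and open points where the red signal was not well above background. Nr4a1 was at -2.62 to -2.32 in the 5 AP5 arrays against -1.25 to -0.71 in the 5 vehicle arrays, and Nr4a2 at -0.18 to 0.03 against 0.20 to 0.95.

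The mean log2 ratio of Nr4a1 was -2.46 ± 0.12 in AP5 arrays (SD, n = 5) against -1.01 ± 0.19 in vehicle arrays (SD, n = 5). The log2 difference was -1.45 (SE 0.08, 95% interval -1.63 to -1.27), which leaves 36.6% of the vehicle level (32.4% to 41.3%), with an adjusted p of 5.02e-09 in limma over all genes tested. Only 1 gene of the 19197 had a smaller p in this comparison. An exact permutation test of the same arrays, two-sided, gave 0.00794, the smallest p that 5 against 5 arrays allow. In this comparison 18.0% of all genes passed the adjusted threshold of 0.05, 7.23% lower and 10.8% higher, 31.4% had an unadjusted p under 0.05, and in 11.4% the groups did not overlap. In such bulk cultures, fewer cells of a type and less RNA per cell cannot be told apart. The call was lost when slide entered the fit as a fixed block (log2 difference -1.46, SE 0.28, adjusted p 0.126), because no slide held both AP5 and vehicle arrays and that estimate is reached only through AP5 array 5 and vehicle array 2, by way of slides shared with NVP and Ro25 arrays.

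In NVP arrays Nr4a1 averaged -1.27 ± 0.11 (SD, n = 4), a log2 difference from vehicle of -0.26 (SE 0.09, 95% interval -0.45 to -0.07). The unadjusted p was 0.00875 in limma and the adjusted p 0.39, while the exact permutation p was 0.0476, where 4 against 5 arrays can reach 0.0159. In Ro25 arrays it averaged -1.42 ± 0.10 (SD, n = 5), a log2 difference from vehicle of -0.41 (SE 0.08, interval -0.59 to -0.23), or 75.3% of the vehicle level (66.6% to 85.1%). Its limma p was 0.000113, the fifth smallest of all genes, its adjusted p 0.324 and its exact permutation p 0.00794. Neither value passed after adjustment, and in neither comparison did any of the 19197 genes (0%), although 8.28% of genes had an unadjusted limma p under 0.05 for NVP and 6.16% for Ro25. Groups that did not overlap, as those of Nr4a1 in Ro25 and vehicle, were found for 0.740% of genes, and for 2.53% between NVP and vehicle.

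Set against the other compounds, Nr4a1 in AP5 arrays had a log2 difference of -1.19 from NVP (SE 0.09, adjusted p 2.75e-07 in limma) and of -1.04 from Ro25 (SE 0.08, adjusted p 3.09e-07). Of all genes, 4.26% passed between AP5 and NVP (1.36% lower, 2.89% higher) and 6.06% between AP5 and Ro25 (1.95% lower, 4.11% higher). The groups did not overlap for 8.03% of genes between AP5 and NVP and for 6.78% between AP5 and Ro25. NVP minus Ro25 was 0.15 (SE 0.09, 95% interval -0.04 to 0.34, adjusted p 1), in a comparison where 0% of genes passed, 1.57% had an unadjusted p under 0.05 and 0.672% had groups that did not overlap. The order of Nr4a1 was thus AP5 lowest, then Ro25, NVP and vehicle, and of neighbours in it only AP5 and Ro25 differed beyond the adjusted threshold. That call too was lost with slide as a fixed block (log2 difference -1.0, adjusted p 0.124), whereas AP5 minus NVP kept an adjusted p of 0.00932.

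Nr4a2 was lower in AP5 arrays than in vehicle arrays as well, by a smaller amount. Its probe, on chromosome 2 at bases 56923674 to 56923733 of mm8, was well above background in both channels of all 19 arrays. The log2 ratios were -0.10, -0.18, -0.09, 0.03 and 0.03 in AP5 arrays, 0.46, 0.55, 0.18 and 0.61 in NVP arrays, 0.60, 0.50, 0.64, 0.52 and -0.02 in Ro25 arrays, and 0.20, 0.49, 0.95, 0.55 and 0.68 in vehicle arrays. All AP5 arrays lay below all NVP and all vehicle arrays, 1 Ro25 array lay among the AP5 arrays, and NVP, Ro25 and vehicle arrays overlapped. The red scanner signal spanned 630 to 867 in AP5, 874 to 1270 in NVP, 651 to 1230 in Ro25 and 749 to 1320 in vehicle arrays.

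The mean log2 ratio of Nr4a2 was -0.06 ± 0.09 in AP5 arrays (SD, n = 5) against 0.57 ± 0.27 in vehicle arrays (SD, n = 5), so the arrays of vehicle spread more widely than those of AP5. The log2 difference was -0.63 (SE 0.13, 95% interval -0.91 to -0.36), or 64.4% of the vehicle level (53.4% to 77.7%), with an adjusted limma p of 0.00221 and an exact permutation p of 0.00794. By limma p it was at rank 887 of the 19197 genes tested. Of these, 18.0% passed in this comparison, and in 11.4% the groups did not overlap. With slide as a fixed block the log2 difference of Nr4a2 was -0.38 (SE 0.41, adjusted p 0.747). NVP arrays averaged 0.45 ± 0.19 (SD, n = 4), a log2 difference from vehicle of -0.12 (SE 0.14, interval -0.41 to 0.16, adjusted limma p 0.924). Ro25 arrays averaged 0.45 ± 0.27 (SD, n = 5), a log2 difference of -0.13 from vehicle (SE 0.13, interval -0.40 to 0.14, adjusted limma p 1). Both intervals include no change, and their lower ends allow 75.3% of the vehicle level for NVP and 75.9% for Ro25.

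AP5 minus NVP for Nr4a2 was -0.51 (SE 0.14, adjusted limma p 0.0388) and AP5 minus Ro25 was -0.51 (SE 0.13, adjusted limma p 0.0223), each just inside the threshold. The call against NVP was lost when any AP5 array, NVP array 1, 2 or 4, or vehicle array 4 was left out, with adjusted p up to 0.124. The call against Ro25 was lost without AP5 array 1 or 2 or Ro25 array 1, 2, 3 or 4, with adjusted p up to 0.0597. With slide as a fixed block the log2 differences were -0.29 (adjusted p 0.535) and -0.27 (adjusted p 0.714). NVP minus Ro25 was 0.00 (SE 0.14, interval -0.28 to 0.29, adjusted p 1). In the order of Nr4a2, AP5 was lowest, NVP and Ro25 were level, and vehicle was highest but not beyond the spread.

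Nr4a3 was close to background in every group, and its values have little room to show a difference. Its probe is placed at chromosome 4, bases 48088918 to 48092104 of mm8, a span of 3187 bases, where the other probes span 60. The red signal was well above background on 1 of 5 AP5, 2 of 4 NVP, 2 of 5 Ro25 and 1 of 5 vehicle arrays. It ran from 64.4 to 119 in AP5, 67.6 to 94.0 in NVP, 72.1 to 91.6 in Ro25 and 72.2 to 90.6 in vehicle arrays, over a local background of 47 to 55. The reference channel was well above background on 1 of 19 arrays, so the ratio compares a pair of dim signals.

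**Figure D2:**
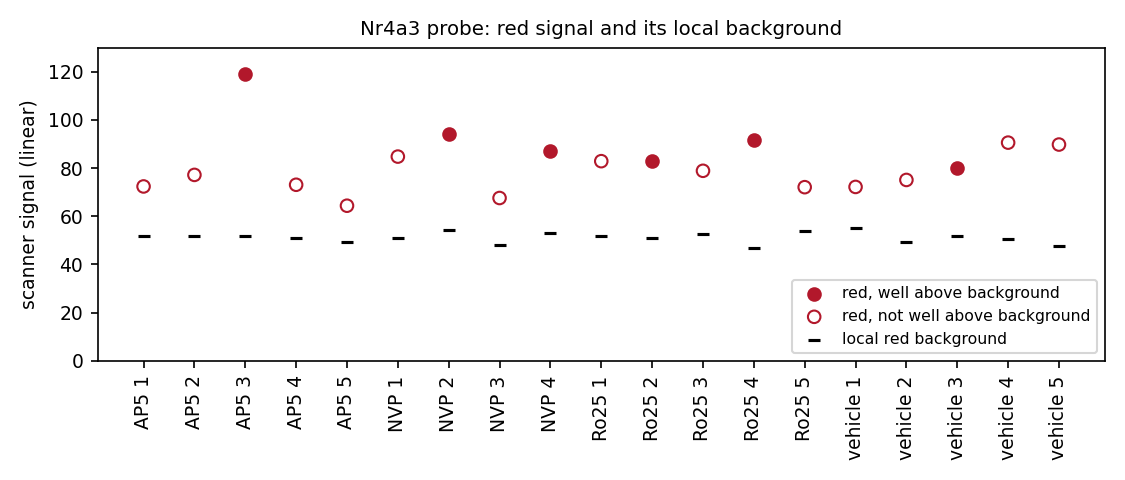
Red scanner signal of the Nr4a3 probe (linear, y axis) on each array (x axis) with its local background as a dash, and filled points where the signal was well above background. The signal lay between 64.4 and 119 over a background of 47 to 55, and 6 of 19 arrays were well above background.

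The log2 ratios of Nr4a3 were 0.40, 0.22, 0.27, 0.27 and 0.23 in AP5 arrays, 0.44, 0.57, 0.34 and 0.42 in NVP arrays, 0.29, 0.42, 0.36, 0.55 and 0.23 in Ro25 arrays, and 0.23, 0.27, 0.32, 0.37 and 0.29 in vehicle arrays. All groups overlapped with vehicle. The log2 differences from vehicle were -0.02 for AP5 (SE 0.06, interval -0.14 to 0.11, adjusted limma p 0.884), 0.15 for NVP (SE 0.06, interval 0.02 to 0.28, adjusted limma p 0.517) and 0.08 for Ro25 (SE 0.06, interval -0.05 to 0.20, adjusted limma p 1). The exact permutation p was 0.706 for AP5, 0.0317 for NVP and 0.254 for Ro25. The offset of 50 added in the background correction pulls ratios of signals this dim towards each other, and in the deposited log ratio, which was background-subtracted without it, AP5 minus vehicle was -1.10 (SE 0.43, adjusted limma p 0.107). A change of Nr4a3 was therefore not detectable at this signal, which does not show that there was none.

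The differences between members were tested on each array's own difference of log2 ratios, in 9 two-sided exact permutation tests adjusted together. Nr4a1 minus Nr4a2 averaged -2.40 ± 0.20 in AP5 arrays (SD, n = 5) against -1.58 ± 0.11 in vehicle arrays (SD, n = 5), so Nr4a1 fell by more than Nr4a2 under AP5 (difference -0.82 on the log2 scale, exact p 0.00794, adjusted p 0.0179). For NVP the same value was -0.14 (exact p 0.111, adjusted p 0.143) and for Ro25 -0.28 (exact p 0.0397, adjusted p 0.0595). The 6 tests against Nr4a3 are not given, since its ratio lay near background and in the deposited log ratio moved by -1.10 in AP5 minus vehicle. The comparisons with vehicle share the same 5 vehicle arrays.

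**Figure D3:**
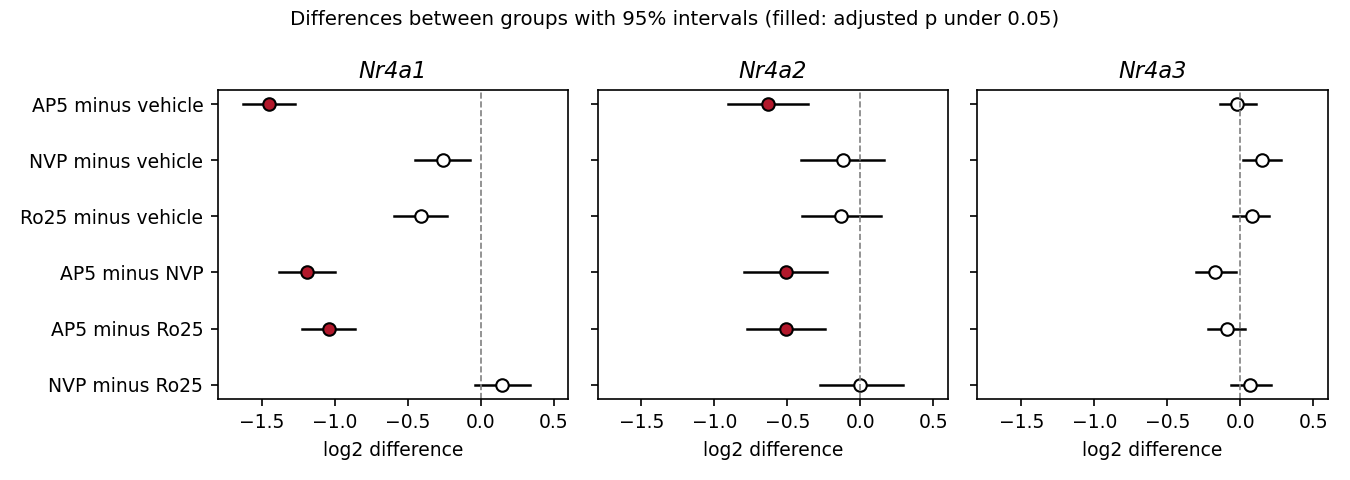
Log2 difference between groups (x axis) with its 95% interval for the 6 comparisons (y axis), with 1 panel per gene and filled points where the adjusted limma p was under 0.05. Nr4a1 and Nr4a2 passed in the 3 comparisons that involve AP5, Nr4a1 at -1.45 and Nr4a2 at -0.63 against vehicle, and Nr4a3 passed in none.

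Arrays of the same group differed in Nr4a2 along with markers of astrocytes, the glial cells of such cultures. The 17 listed astrocyte markers were all measured, and their mean log2 ratio was 3.53 ± 0.49 in AP5 (range 2.74 to 4.03), 3.48 ± 0.53 in NVP (2.71 to 3.90), 3.40 ± 0.49 in Ro25 (2.57 to 3.85) and 3.36 ± 0.41 in vehicle arrays (2.65 to 3.67), SD with n = 5, 4, 5 and 5. In each group 1 array stood low, AP5 array 5 at 2.74, NVP array 4 at 2.71, Ro25 array 3 at 2.57 and vehicle array 3 at 2.65, while every other array was at 3.40 or above. Nr4a2 had its highest log2 ratio of the group on that array in NVP, Ro25 and vehicle, and in AP5 it was 0.03 on that array and, marginally higher, on array 4. Nr4a2 was lowest, in each group, on the array with the most astrocyte marker signal, at -0.18 on AP5 array 2, 0.18 on NVP array 3, -0.02 on Ro25 array 5 and 0.20 on vehicle array 1. Nr4a1 was highest on the array low in these markers in NVP and vehicle only. Because 4 arrays form a cluster of their own, no correlation over all arrays is given.

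**Figure D4:**
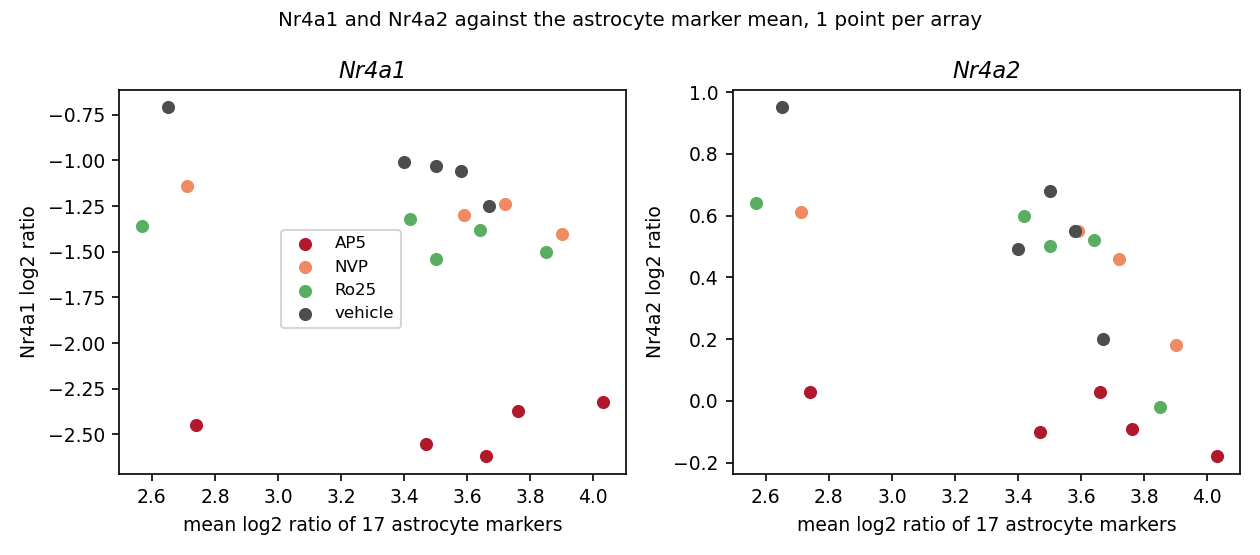
Log2 ratio of Nr4a1 and Nr4a2 (y axes) against the mean log2 ratio of 17 astrocyte markers (x axis), 1 point per array, coloured by treatment. The 4 arrays at 2.57 to 2.74, 1 per group, stand apart from those at 3.40 to 4.03, and the AP5 points of Nr4a1 lie below all others at either end.

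Without these 4 arrays, AP5 minus vehicle was -1.38 for Nr4a1 (adjusted limma p 5.92e-08) and -0.56 for Nr4a2 (adjusted limma p 0.00829), and with the astrocyte mean as a covariate it was -1.43 (3.09e-10) and -0.58 (0.000248). The mean of the 14 neuron markers was 4.52 ± 0.07 in AP5 (range 4.43 to 4.59), 4.44 ± 0.10 in NVP (4.36 to 4.58), 4.43 ± 0.12 in Ro25 (4.27 to 4.58) and 4.27 ± 0.13 in vehicle arrays (4.06 to 4.41). Of the neuron markers, 5 of 14 were called higher in AP5 than in vehicle and 0 lower, but in the red channel alone 11 of the 14 turned direction. None of the 5 calls was kept in the red channel alone, with normexp fitted to all spots, with log ratios brought to a common spread or with slide as a fixed block, so the neuron markers give no settled direction. Markers of microglia, 9 of 11 measured, averaged -2.14 ± 0.08 in AP5 against -1.99 ± 0.08 in vehicle arrays, and those of the oligodendrocyte lineage, 11 of 11 measured, 2.01 ± 0.24 against 1.85 ± 0.26 (SD, n = 5 each). In AP5 minus vehicle 3 of 9 microglia markers were called lower and 0 higher. Of the oligodendrocyte markers 2 of 11, and of the astrocyte markers 2 of 17, were called higher and 0 lower. Of all genes, 7.23% were called lower and 10.8% higher. None of these marker calls was kept with normexp fitted to all spots, with a common spread or with slide as a fixed block. Of 7 endothelial markers 6 were measured, with a median log2 difference of -0.02, and 1 of them, Kdr, was at 1.28 (adjusted limma p 3.43e-06). The part of these cell types in the NR4A values was not tested beyond the fits named.

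The arrays lay on 5 slides tied to treatment and were scanned on 1 day. Within the slide that held 3 Ro25 arrays and 1 vehicle array, Ro25 minus vehicle was -0.46 for Nr4a1, -0.12 for Nr4a2 and 0.07 for Nr4a3. Within the slide with 1 AP5 and 2 NVP arrays, AP5 minus NVP was -1.13 for Nr4a1, -0.29 for Nr4a2 and -0.17 for Nr4a3, and within the slide with 2 NVP and 2 Ro25 arrays, NVP minus Ro25 was 0.13, 0.02 and 0.08 for the same genes. The reference channel bears on the same point, since it held 1 RNA on all arrays. In that channel AP5 minus vehicle was 0.09 for Nr4a1 (SE 0.03, adjusted limma p 0.122), 0.00 for Nr4a2 and 0.05 for Nr4a3, while 1010 genes were called between these groups. The green differences of Nr4a1 and Nr4a2 were small beside their red-over-green differences. Calls in green between groups are technical, since 1 RNA was on all arrays, and green does not measure effects of slide on the red channel. The part of slide in the NR4A values was not tested beyond the fits named.

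Most other immediate early genes known as CREB targets were called lower under AP5. Of 20 listed and measured, 12 were called lower and 0 higher in AP5 than in vehicle, where 7.23% of all genes were called lower and 10.8% higher, and 8 did not pass. The list had a median log2 difference of -0.42, and all genes had 0.01. Like the lists that follow, it was chosen with earlier results of these data known, so its counts are a description and not a test. Bdnf, a growth factor for synapses, had a log2 difference of -1.79 (SE 0.13, adjusted limma p 6.16e-08), Ptgs2, the inducible cyclooxygenase, -1.49 (SE 0.16, adjusted p 3.55e-06) and Npas4, an activity-induced transcription factor, -1.33 (SE 0.13, adjusted p 1.32e-06), with Npas4 well above background on only 1 of 5 AP5 arrays, so that its value is compressed and ran from -3.45 to -1.11 over the alternative settings. For Nr4a1 the log2 difference was -1.45 and for Nr4a2 -0.63. With slide as a fixed block no called gene of this list or of the lists that follow kept its call. In the deposited log ratio 1 member, Egr4, was called higher instead of lower; Egr4 was named after its values were seen. For NVP and Ro25 no member was called against vehicle, where 0% of all genes were, and the list medians were -0.12 and -0.18. Bdnf, Npas4 and Ptgs2 had log2 differences of -0.37, -0.33 and -0.37 in NVP and of -0.21, -0.70 and -0.63 in Ro25, all short of the threshold after adjustment.

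The kinases, cofactors and factors that lie upstream of NR4A transcription did not move one way. Of 29 listed, 27 were measured, since Crtc1 was not found by its name on the array and Elk1 was too dim. In AP5 minus vehicle 5 were called lower and 7 higher, with a median log2 difference of 0.06. Over all genes 7.23% were called lower and 10.8% higher, and the median was 0.01. Of the 12 calls in the list, 5 were kept with normexp fitted to all spots and 6 with a common spread. Hdac5, a histone deacetylase that represses MEF2 targets, fell by 0.57 on the log2 scale (adjusted limma p 1.38e-07), Camkk2, a kinase that activates CaMKIV, by 0.63 (adjusted p 0.0113) and Rps6ka4, a kinase of CREB and histone H3, by 0.27 (adjusted p 0.0063). Camkk1, the related kinase kinase, rose by 0.88 (adjusted p 5.58e-08) and Rps6ka5, the close relative of Rps6ka4, by 0.62 (adjusted p 4.52e-05). Camk2b, a subunit of CaMKII, was called higher by 0.29 (adjusted p 0.00239), but its direction turned in the red channel alone (-0.09). Paralogs thus stood on opposite sides in the CaMKK pair and in the Rps6ka4 and Rps6ka5 pair. For NVP and Ro25, none of the 27 was called, where 0% of all genes were.

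Of the partners of the NR4A proteins 3 of 12 were called, and of their reported targets 4 of 16, where 18.0% of all genes were (7.23% lower, 10.8% higher). Of 12 partners and cofactors, 2 were called lower and 1 higher in AP5 than in vehicle, with a median log2 difference of 0.05. The RXR genes, which encode the dimer partners of Nr4a1 and Nr4a2, gave 0.35 for Rxra (SE 0.14, adjusted limma p 0.106), 0.06 for Rxrb and 0.18 for Rxrg. None of the 3 has a settled direction: another probe of Rxra gave -0.26, Rxra and Rxrb turned with slide as a fixed block and in the authors' processed table, and Rxrg turned with normexp fitted to all spots and in the red channel alone. Pias4, a SUMO ligase, was at -0.32 (adjusted p 0.0195). Rcor1, the CoREST corepressor through which Nr4a2 is known to repress genes in glia, was at 0.26 (adjusted p 0.0224). Of 13 alternative settings, the call was kept in 6 for Pias4 and 10 for Rcor1.

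Of 18 genes reported elsewhere as NR4A targets, 16 were measured, 2 were called lower and 2 higher, and the median log2 difference was 0.03. The lower ones were Bdnf and Spp1, the matrix protein osteopontin, at -0.35 (SE 0.12, adjusted limma p 0.0464). Slc6a3, the dopamine transporter, was at 0.53 (SE 0.12, adjusted p 0.00581) and Pomc, the precursor of corticotropin, at 0.21 (adjusted p 0.0359), and the direction of Pomc turned with slide as a fixed block (the whole range over alternatives ran from -0.07 to 0.21). The call was kept in 6 of 13 alternative settings for Spp1, 9 for Slc6a3 and 5 for Pomc. None of the 16 was called for NVP or Ro25, where 0% of all genes were. Ndg1 and Ndg2, whose symbols stand for Nur77 downstream gene, were chosen after the array files were read. Relative to vehicle, Ndg2 was at 0.01 in AP5, 0.07 in NVP and -0.02 in Ro25, and Ndg1 was well above background on 0 arrays.

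Among the rest of the nuclear receptor superfamily, log2 differences of AP5 minus vehicle ran from -0.44 to 0.39 in the main setting, above those of Nr4a1 and Nr4a2. Over the alternative settings Nr0b1 reached -0.86 and Ppara -0.75, both named after their values were seen, where Nr4a2 ran from -0.74 to -0.38. Of 46 others listed, 41 were measured, 6 were called lower and 5 higher in AP5 than in vehicle, and their median log2 difference was 0.01. Of all genes, 7.23% were called lower and 10.8% higher. The called genes included Nr6a1, the germ cell nuclear factor, at -0.35 (SE 0.07, adjusted limma p 0.00125), Rarg, a retinoic acid receptor, at -0.27 (adjusted p 0.0048) and Pparg, a receptor for fatty acid ligands, at -0.22 (adjusted p 0.024). On the other side were Nr1d2, the circadian repressor REV-ERB beta, at 0.34 (SE 0.07, adjusted p 0.00169), Rarb at 0.30 (adjusted p 0.023) and Esrrb at 0.39 (adjusted p 0.00413), where the other probe of Esrrb gave -0.14. Of 13 alternative settings, 12 kept the call of Nr6a1 and of Nr1d2, 9 that of Esrrb, 8 that of Rarg and 7 that of Pparg and of Rarb. For NVP and Ro25, none of the 41 was called, where 0% of all genes were.

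**Figure D5:**
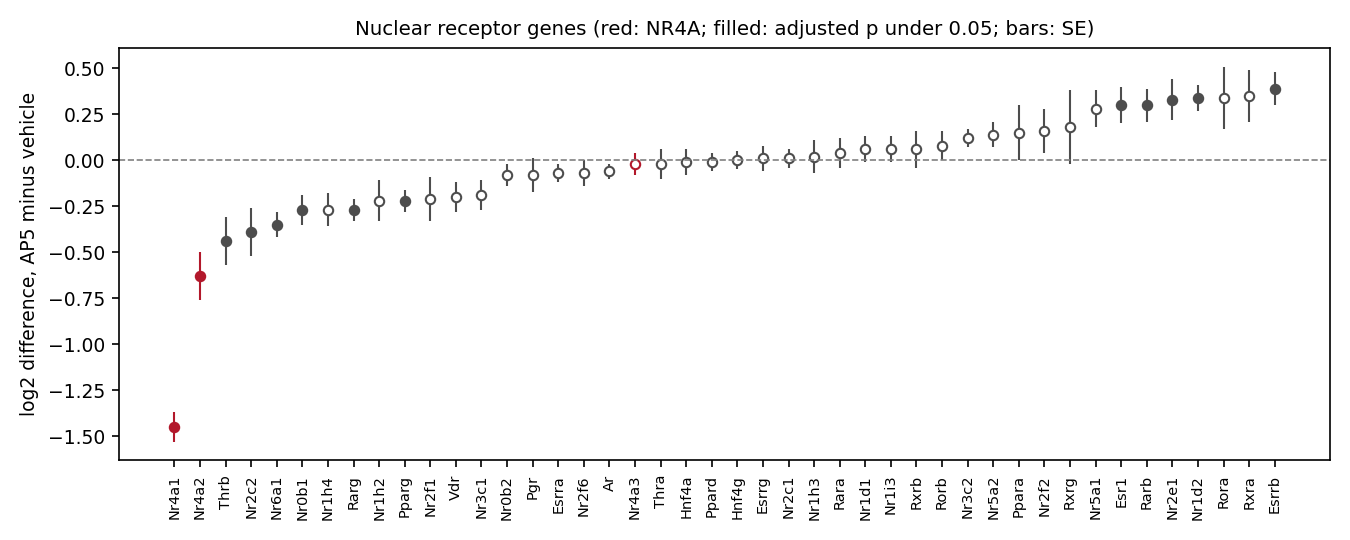
Log2 difference of AP5 minus vehicle (y axis, bars are SE) for the nuclear receptor genes measured (x axis), ordered by value, with NR4A genes in red and filled points where the adjusted limma p was under 0.05. Nr4a1 at -1.45 and Nr4a2 at -0.63 are at the low end, Nr4a3 at -0.02 lies in the middle, and the other 41 receptors lie within 0.44 of no difference.

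Over the 19 arrays, the log2 ratio of Nr4a1 had a Pearson r of 0.848 with that of Nr4a2, and of 0.633 once each group's mean was taken off, as a description of arrays that share treatment and slide. Nr4a3 had an r of 0.276 with Nr4a1 and of 0.444 with Nr4a2. The genes most like Nr4a1 over the 19 arrays were Rhobtb1 (r 0.970, within groups 0.557), Phlda1 (0.968, 0.446), Lurap1 (0.967, 0.581), Spred2 (0.967, 0.555) and Per2 (0.959, 0.488). In AP5 minus vehicle their log2 differences were -0.83, -1.19, -0.98, -1.17 and -0.97 in that order, and their r with Nr4a1 was lower once the group means were taken off. The genes most like Nr4a2 were Ttc39b (r 0.953, within groups 0.905), Elavl2 (0.950, 0.894), Clip1 (0.934, 0.934), Ptchd1 (0.931, 0.825) and Metap1 (0.930, 0.812). These genes were picked by their r over the same 19 arrays, so high values within groups are in part given by that choice. Within groups Nr4a2 also differed along with astrocyte markers, whose part in these values was not tested. For Nr4a3 the highest values were lower, 0.768 for 2210408F21Rik and 0.767 for Ptpre.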

How the data were processed

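RNA was measured on 19 Agilent 2-colour mouse arrays. Per the labels' protocols, cRNA was labelled with a Quick Amp kit, neuron RNA in Cy5 and a universal mouse reference in Cy3, and the dyes were not swapped. Per the file headers, the deposited intensity of each spot came from Feature Extraction 9.5.3.1 with protocol GE2-v5_95_Feb07, and the positions are of mm8. Version 11.0 of Agilent Feature Extraction stands in the submitters' processing notes. The deposited log10 ratio was background-subtracted and dye-normalized, per the file headers. The authors' processed table holds log2 values of 20674 probes, whose centring is unknown. Against the ratios computed here its columns had r of 0.9986 to 0.9998, slopes of 0.9891 to 1.007 and medians of 0.0345 to 0.0478, which shows its scale and direction.

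Spots marked as outliers or not uniform were left out (117 to 266 per array, 1642 on vehicle array 5). The NR4A spots were never among them, and 0 spots were saturated. Intensities were corrected with normexp (offset 50) and normalized within arrays by loess in limma 3.58.1 (R 4.3.3). Probes well above background in red on at least 4 arrays were kept (28650), each gene was represented by 1 of its kept probes, and genes with at least 2 values per group were tested (19197, of which 6729 had more than 1 kept probe). One limma fit over all 19 arrays gave 6 comparisons, with Benjamini-Hochberg adjustment over all genes and a threshold of 0.05. The median SE of a log2 difference between AP5 and vehicle was 0.08. Across arrays, median intensities were 135.5 to 177.8 in red and 88.7 to 106.8 in green, and 24943 to 28548 probes were well above background in red. No pair of arrays shared more than 0.0161% of its red values, so each array was counted as 1 sample. Single values were tested with exact permutation tests (scipy 1.17.1). The fit was tested on simulated data.

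Named were the 3 members, the 3 genes per list and direction with the smallest p among those called in AP5 against vehicle, and the 5 genes per member with the highest r over the 19 arrays; of the last, 2 are given for Nr4a3. Egr4, Kdr, Nr0b1, Ppara and the RXR genes are named outside this rule. Other cell type markers are given as list means and counts, and 1 other gene that the rule names is not reported here. The members and gene lists were chosen with earlier results of these data known. The alternatives were another background correction, the deposited log10 ratio, the red channel alone, a common spread, no filter, the mean of a gene's probes, slide as a fixed or random block, a replicate block, only the groups compared, adjustment for or removal by astrocyte markers, the authors' table, and each array left out.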

Additional observations from a re-analysis of the deposited data

Results flagged for a closer look

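Among the Ro25 arrays, Nr4a2 had a log2 ratio of -0.02 on array 5, while the other 4 arrays lay between 0.50 and 0.64. The gap to the nearest array made up 0.786 of the group's range, above the critical value of 0.71 for 5 arrays. The same array had the highest mean of astrocyte markers of its group, 3.85, and what this has to do with its Nr4a2 value was not tested. Without it, NVP minus Ro25 for Nr4a2 was -0.11, against 0.00 with it. Of the 12 groups examined, 3 genes in 4 treatments, this was the only one with such an array, and chance gives about 5% of groups one.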

How the results depend on the processing

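Over 13 alternative settings, AP5 minus vehicle ranged from -1.51 to -1.36 for Nr4a1 and from -0.74 to -0.38 for Nr4a2, and both calls were lost only with slide as a fixed block, at -1.46 (adjusted p 0.126) and -0.38 (0.747). That fit called 10 genes in all, against 3464, none of the immediate early genes or other nuclear receptors (0 lower, 0 higher), and gave -1.0 for Nr4a1 and -0.27 for Nr4a2 in AP5 minus Ro25 and -0.29 for Nr4a2 in AP5 minus NVP. As a random block, slide had a consensus correlation of -0.078. Leaving out each of the 19 arrays gave -1.51 to -1.38 for Nr4a1 and -0.73 to -0.54 for Nr4a2, all called.

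The Nr4a2 call of AP5 minus NVP was also lost with normexp fitted to all spots (-0.52), in the deposited log ratio (-0.59), in the red channel alone (-0.53), with a common spread (-0.50), and without the 4 arrays low in astrocyte markers (-0.48), and over single arrays left out it ranged from -0.60 to -0.46. The call of AP5 minus Ro25 was lost with normexp fitted to all spots (-0.47) and with a common spread (-0.48), and over single arrays left out ranged from -0.62 to -0.46. Whether replicate numbers paired the arrays could not be settled, since only same-numbered pairs were correlated, with no other pairs to set them against. The correlations of their deviations from group means were not all positive in any of the 6 comparisons. They ran from -0.469 to 0.087 for AP5 and vehicle, -0.372 to 0.766 for Ro25 and vehicle, -0.623 to 0.322 for NVP and vehicle, -0.624 to 0.444 for AP5 and Ro25, -0.322 to 0.238 for AP5 and NVP, and -0.51 to 0.586 for NVP and Ro25. With the replicate number as a block, AP5 minus vehicle was -1.45 for Nr4a1 (5.84e-07) and -0.63 for Nr4a2 (0.00718), while for Nr4a2 AP5 minus NVP was -0.49 (0.114), AP5 minus Ro25 -0.51 (0.0516) and NVP minus Ro25 -0.02.

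Nr4a3, near background, depended on the setting. It in AP5 minus vehicle was 0.03 in the red channel alone and 0.00 without the 4 arrays low in astrocyte markers (-0.05 to 0.00 over arrays left out). In the red channel alone it was 0.01 in AP5 minus NVP and 0.02 in AP5 minus Ro25, and in the deposited log ratio -1.10, -1.36 and -1.07 in AP5 minus vehicle, NVP and Ro25 (adjusted p 0.107, 0.124 and 0.182). In Ro25 minus vehicle it was -0.02 with normexp fitted to all spots and -0.03 in the deposited log ratio. Nr4a2 in NVP minus Ro25 was -0.07 in the red channel alone and 0.00 without the 4 arrays, and -0.11 to 0.10 over arrays left out. The cause was not tested.

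Immediate early genes called lower were 7 with normexp fitted to all spots and 6 with a common spread, and 1 was called higher in the deposited log ratio and with the astrocyte covariate. Other nuclear receptors called lower numbered 1 with normexp fitted to all spots, 3 in the deposited log ratio, 1 with a common spread and 2 from the arrays of only the groups compared, and 3 to 7 over arrays left out (3 without AP5 array 2, 3 or 4 or vehicle array 3). Those called higher numbered 1 with normexp fitted to all spots, 3 in the deposited log ratio, 3 in the red channel alone, 2 with a common spread, 8 with slide as a random block, 3 from the groups compared, 9 with the covariate, and 2 to 5 over arrays left out (2 without AP5 array 1, 3 without vehicle array 1 or 5). Over all genes, AP5 against vehicle called 842 with normexp fitted to all spots, 2098 in the red channel alone, 960 with a common spread and 5540 with the covariate. AP5 against NVP called 817, against 273 with a common spread, 274 with normexp fitted to all spots, 191 with slide as a fixed block, 518 from the groups compared, 530 with the replicate block, 1649 with the covariate, and 542 and 524 without NVP array 1 and 2. AP5 against Ro25 called 1164, against 433 with normexp fitted to all spots, 485 with a common spread, 23 with slide as a fixed block and 2168 with the covariate. Ro25 against vehicle, with 0, reached at most 2, and NVP against vehicle 4, without vehicle array 2. Signal over background limits Nr4a3, and no slide with both AP5 and vehicle arrays limits every value of that comparison.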
